A study of Mus musculus with 18 samples.

Results

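The genes described here are 10 transcription factors that mark or hold the naive and stem-like state of T cells: Tcf7, Lef1, Bach2, Foxo1, Foxp1, Id3, Satb1, Myb, Bcl6 and Ets1. They were taken by gene name from the deposited expression tables, and all 10 were found among the 20825 genes that the 3 tables share. Poly-A RNA had been sequenced from mouse CD8+ T cells of 6 groups with 3 libraries each, 18 libraries in all. The groups were naive cKO and naive WT cells, effector cKO and effector WT cells, and memory cKO and memory WT cells. The mice were 8 weeks old, cKO stands for a conditional knockout of Hspa9, and WT for wild type. Hspa9 encodes GRP75, a chaperone of the mitochondrial matrix, and the study asked what GRP75 does in each subset. Naive cells came from lymph nodes and spleen, and the effector and memory cells were made from naive cells in culture, so "memory" here names a culture condition. The labels give neither the Cre driver, nor the mouse strain, nor whether the replicates were separate mice, so the p-values measure only the spread between these libraries.

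As background, TCF1 (the product of Tcf7) and LEF1 bind the same DNA motif and keep naive and memory CD8+ T cells able to renew themselves, and both are turned down when a cell becomes an effector. FOXO1 is held outside the nucleus by AKT after antigen and cytokine signals, and in resting cells it drives homing and survival genes such as Ccr7 and Il7r. FOXP1 keeps naive cells quiet, BACH2 restrains AP-1 driven effector genes, ID3 blocks E proteins, MYB supports stem-like memory cells, BCL6 represses the effector regulator Blimp-1, SATB1 folds chromatin, and ETS1 is a broad T cell activator.

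Between 14771251 and 18049774 reads per library had been assigned to genes. The 10 genes were read from 18 times in the thinnest library and gene (Id3 in effector cells) up to 30111 times (Tcf7 in memory cells). All 10 passed the filter on low values in each subset. Hspa9 itself was higher in the libraries labelled cKO by 0.69 on the log2 scale in naive cells, 0.16 in effector cells and 0.48 in memory cells, so cKO below is the label of a library. Y-linked genes such as Ddx3y held 2771 to 3056 normalised reads in the naive cKO libraries and 0 in the naive WT libraries, and Xist 4109 to 4627 in naive cKO and 14705 to 17631 in naive WT libraries. Each naive cKO library thus held reads of Y-linked genes and of Xist together, and was neither plainly male nor plainly female. Whether cells of several mice were pooled cannot be told from these reads. In naive cells genotype and the sex of the cells therefore cannot be told apart. Xist lay at 12387 to 12848 in effector cKO and 13696 to 14929.6 in effector WT cells, and at 10152 to 17168 in memory cKO and 13419.6 to 17598 in memory WT cells. Xist in effector and memory cKO libraries thus lay above that of naive cKO libraries, so comparisons of these subsets with naive cKO cells also cross this difference, and subset and sex cannot be told apart in them. Each CD8 T cell marker was detected in each group. Markers of effector T cells summed to 7782 to 8579 CPM in effector cKO and 7413 to 7848 in effector WT cells. They summed to 333 to 372 in memory cKO and 195.5 to 209.7 in memory WT cells, and 56.3 to 62.0 in naive cKO and 73.0 to 78.9 in naive WT cells. The naive sum was lower in cKO although 5 of the 7 markers tested were called higher there and 1 lower (median log2 fold change 1.85). Markers of naive T cells summed to 4183 to 4410 CPM in naive cKO and 3995 to 4251 in naive WT cells. In effector cells they summed to 1073 to 1169 in cKO and 1166 to 1321 in WT. In memory cells they summed to 4146 to 4610 in cKO (5 of 7 called lower) and 5377 to 5727 in WT, above the naive WT range.

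The promoters of a few members that moved furthest or against the rest are shown here as reference sequence, from RefSeq on the build GRCm38.p6. Of the 10 members, 9 had an entry, with 20 windows of 300 bases in all (250 before a start site and 50 after it). The letters searched on both strands were CTTTGA for TCF/LEF, GTAAACA for FOXO, CCGGAA for ETS, AACGG for MYB, TGANTCA for AP-1 and TGATGNAA for ATF4. Capitals mark a match, and no matches overlapped in the windows printed. Positions count from 1 at the first transcribed base, with negative numbers before it.
Tcf7, second listed start, chr11:52282546-52282845, minus strand: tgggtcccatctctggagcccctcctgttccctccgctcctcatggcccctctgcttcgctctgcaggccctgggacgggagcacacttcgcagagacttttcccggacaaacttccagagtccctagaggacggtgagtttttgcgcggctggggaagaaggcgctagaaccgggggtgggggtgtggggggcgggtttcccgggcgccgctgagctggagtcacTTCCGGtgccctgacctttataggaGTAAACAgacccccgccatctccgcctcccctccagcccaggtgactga
Myb, chr10:21160935-21161234, minus strand: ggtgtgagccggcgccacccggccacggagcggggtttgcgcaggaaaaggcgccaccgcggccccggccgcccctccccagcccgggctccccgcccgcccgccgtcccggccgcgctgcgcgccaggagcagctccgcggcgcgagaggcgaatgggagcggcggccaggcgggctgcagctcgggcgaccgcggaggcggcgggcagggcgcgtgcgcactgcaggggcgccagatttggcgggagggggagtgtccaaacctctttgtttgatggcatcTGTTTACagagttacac
Bcl6, second listed start, chr16:23981234-23981533, minus strand: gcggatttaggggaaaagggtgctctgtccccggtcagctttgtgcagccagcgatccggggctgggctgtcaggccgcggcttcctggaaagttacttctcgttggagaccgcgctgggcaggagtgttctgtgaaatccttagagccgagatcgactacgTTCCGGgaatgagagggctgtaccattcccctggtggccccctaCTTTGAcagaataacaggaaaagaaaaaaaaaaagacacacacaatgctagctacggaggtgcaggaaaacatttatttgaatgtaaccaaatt
Bach2, chr4:32417185-32417484, plus strand: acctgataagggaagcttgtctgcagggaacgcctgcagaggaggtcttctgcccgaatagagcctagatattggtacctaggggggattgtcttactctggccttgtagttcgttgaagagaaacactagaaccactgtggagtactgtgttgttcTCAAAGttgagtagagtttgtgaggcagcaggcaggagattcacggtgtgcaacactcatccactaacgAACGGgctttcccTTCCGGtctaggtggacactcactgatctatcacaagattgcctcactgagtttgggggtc

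The Tcf7 window held the FOXO letters at position 2 and the ETS letters at -24, and the Myb window held the FOXO letters at 34. The Bcl6 window held the ETS letters at -88 and the TCF/LEF letters at -44. The first listed starts, not printed, held none of the letters searched for Tcf7 and only the ETS letters, at 35, for Bcl6. The Bach2 window held TCF/LEF letters at -93, MYB letters at -24 and ETS letters at -11. Over the members' 20 windows, 2 held the FOXO letters, 4 the TCF/LEF letters, 4 the ETS letters and 4 the MYB letters, of which a pair of overlapping Satb1 windows share one site. Over all 32851 windows of the table the shares were 3.65% for FOXO, 16.0% for TCF/LEF, 14.9% for ETS and 17.4% for MYB. None of the members' windows held the AP-1 or ATF4 letters, found in 7.81% and 3.97% of all windows. These matches are letters in a window and say nothing of binding.

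The first question was how the 10 genes were set in each subset. Levels of different subsets were compared as recovered reads scaled to a common library size (CPM) with TMM factors over all 18 libraries. Per kilobase of gene length, Tcf7 was the most abundant of the 10 in naive and memory cells, and Ets1 in effector cells. Tcf7 reached 409 ± 24.3 CPM per kb in naive cKO and 504 ± 22.3 in naive WT cells (SD, n = 3 each), 29.9 ± 1.68 in effector cKO and 37.3 ± 0.257 in effector WT cells, and 394 ± 19.6 in memory cKO and 595 ± 25.8 in memory WT cells. Ets1 lay at 157 ± 1.99 in naive cKO and 169 ± 1.73 in naive WT cells, 210.2 ± 6.94 in effector cKO and 209.8 ± 3.30 in effector WT cells, and 148 ± 9.25 in memory cKO and 188 ± 1.68 in memory WT cells. The second place was held by Ets1 in naive and memory cells and by Tcf7 in effector cells. Bcl6 was lowest of the 10 in naive and memory cells, at 3.34 ± 0.347 CPM per kb in naive cKO, 2.33 ± 0.0481 in naive WT, 6.38 ± 0.372 in memory cKO and 4.84 ± 0.0642 in memory WT cells. Id3 was lowest in effector cells, at 1.08 ± 0.455 in cKO and 1.21 ± 0.00756 in WT. These orders and those below are per kilobase and depend on the annotated length. In CPM without it, Ets1 at 1327 lay above Tcf7 at 1235 in naive cKO cells, while Tcf7 at 1523 lay above Ets1 at 1436 in naive WT cells. In effector cKO cells Satb1 at 404 CPM, Foxo1 at 157, Foxp1 at 137 and Lef1 at 112 lay above Tcf7 at 90.4. The same genes lay above Tcf7 in effector WT cells. Id3 was then lowest in memory cells, at 24.2 CPM in cKO and 30.4 in WT. Bcl6 lay at 42.8 in memory cKO and 32.4 in memory WT cells, where its range overlapped that of Id3.

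The order below the top pair was Lef1, Satb1, Foxo1 and Foxp1 in naive cells of both genotypes, where the ranges of Satb1 and Foxo1 overlapped in WT. In memory cells Lef1 stood above Satb1 in WT, at 47.8 ± 2.05 against 41.6 ± 0.994 CPM per kb. In memory cKO cells Satb1 at 35.2 ± 2.48 and Lef1 at 32.1 ± 1.63 had overlapping ranges, with Satb1 first by the mean. Myb had rank 9 of the 10 in memory cKO cells, where its range overlapped that of Bach2, and rank 7 in memory WT cells, where it overlapped that of Id3. In naive WT cells Id3 and Bach2 overlapped, in effector WT cells Satb1 with Foxo1 and Bcl6 with Bach2, and in effector cKO cells Bach2 with Id3. All other neighbours in these orders had ranges that did not overlap.

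**Figure D1:**
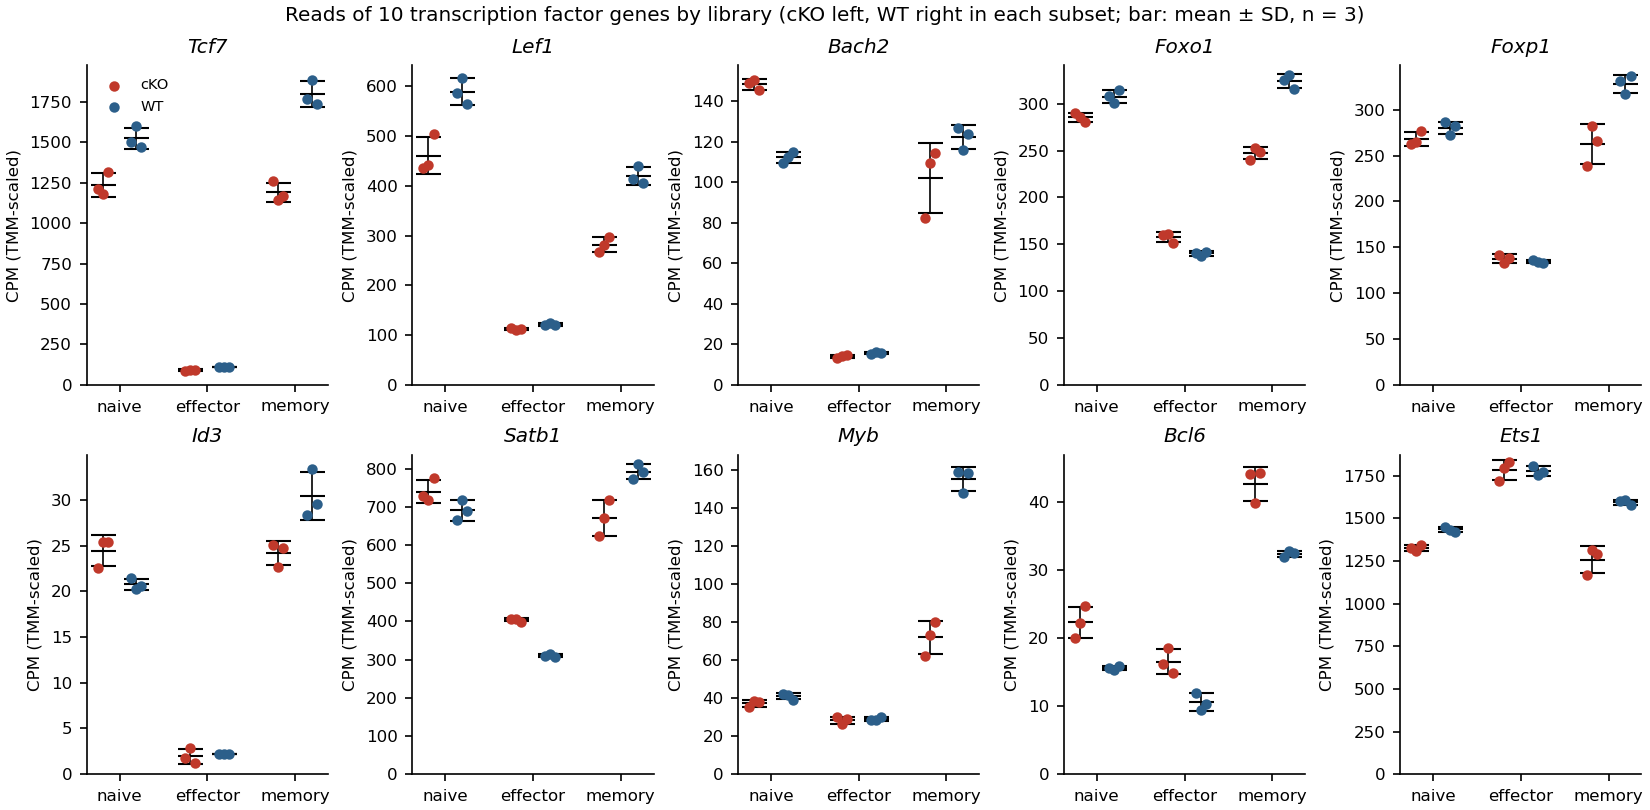
TMM-scaled CPM of each of the 10 genes in every library, for naive, effector and memory cells, with cKO (red) left of WT (blue). Points are libraries and bars the mean ± SD of 3; Tcf7, Lef1, Bach2 and Id3 fell far in effector cells, and the ratio between the genotypes was widest for Myb in memory cells, at 71.9 CPM in cKO and 155 in WT.

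Effector cells held fewer reads than naive cells for 9 of the 10 genes in both genotypes. In limma's test on log2(CPM + 0.5), all 10 were called in cKO and all 10 in WT at an adjusted p under 0.05 (9 lower, 1 higher), where 68.4% of all genes tested were called in cKO (34.0% higher, 34.4% lower) and 66.8% in WT (33.5% higher, 33.3% lower). Tcf7 was lower, with -3.76 on the log2 scale in cKO and -3.75 in WT (adjusted p = 4.0e-24 and 2.1e-24), a 13.6-fold and a 13.5-fold difference. Bach2 gave -3.37 in cKO and -2.80 in WT, Id3 -3.41 in cKO and -2.99 in WT, and Lef1 -2.03 in cKO and -2.27 in WT. Those 4 genes had the deepest falls. Satb1 gave -0.87 in cKO and -1.15 in WT, Foxo1 -0.86 in cKO and -1.13 in WT, and Foxp1 -0.96 in cKO and -1.06 in WT. Bcl6 gave -0.42 in cKO and -0.54 in WT, and Myb -0.39 in cKO and -0.49 in WT. Ets1 alone among the members was higher in effector cells, by 0.42 in cKO and 0.31 in WT.

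Memory cells held 9 of the 10 genes at a higher level than effector cells, again with all 10 called in cKO and in WT (9 higher, 1 lower), where 58.7% of all genes tested were called in cKO (30.0% higher, 28.6% lower) and 61.4% in WT (31.1% higher, 30.3% lower). Tcf7 was higher by 3.71 in cKO and 3.99 in WT, Id3 by 3.39 in cKO and 3.53 in WT, Bach2 by 2.82 in cKO and 2.92 in WT, and Lef1 by 1.32 in cKO and 1.78 in WT. For Myb the memory level exceeded the effector level by 1.32 in cKO and by 2.40 in WT. Ets1 was lower in memory than in effector cells, by -0.50 in cKO and -0.16 in WT, and the WT value lost its call when reads were scaled to library totals (adjusted p = 0.154).

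Set against naive cells, memory WT cells held more of 6 members and less of 1 (36.0% of all genes tested were called, 19.4% higher and 16.6% lower). Myb was higher by 1.91 (SE 0.08, limma adjusted p = 1.5e-15), Bcl6 by 1.03, Id3 by 0.54, Tcf7 by 0.24, Foxp1 by 0.23 and Satb1 by 0.20, and Lef1 was lower by -0.49. The Satb1 call was lost without naive WT replicate 1 (0.052), and Ets1 at 0.15 (0.052) was called in edgeR (0.018) and DESeq2 (0.0051). In memory cKO cells the same comparison gave 2 higher members, Myb by 0.93 and Bcl6 by 0.92 (42.1% of all genes tested were called, 21.8% higher and 20.3% lower). It gave 4 lower members, Lef1 by -0.71, Bach2 by -0.55, Foxo1 by -0.21 and Satb1 by -0.14. This Satb1 call, at an adjusted p of 0.0495, was lost in edgeR (0.0548) and in DESeq2 (0.0974). For Tcf7 the memory to naive difference in cKO was -0.05 (95% interval -0.18 to 0.08), for Id3 -0.01 (-0.34 to 0.31) and for Foxp1 -0.04 (-0.16 to 0.09).

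**Figure D2:**
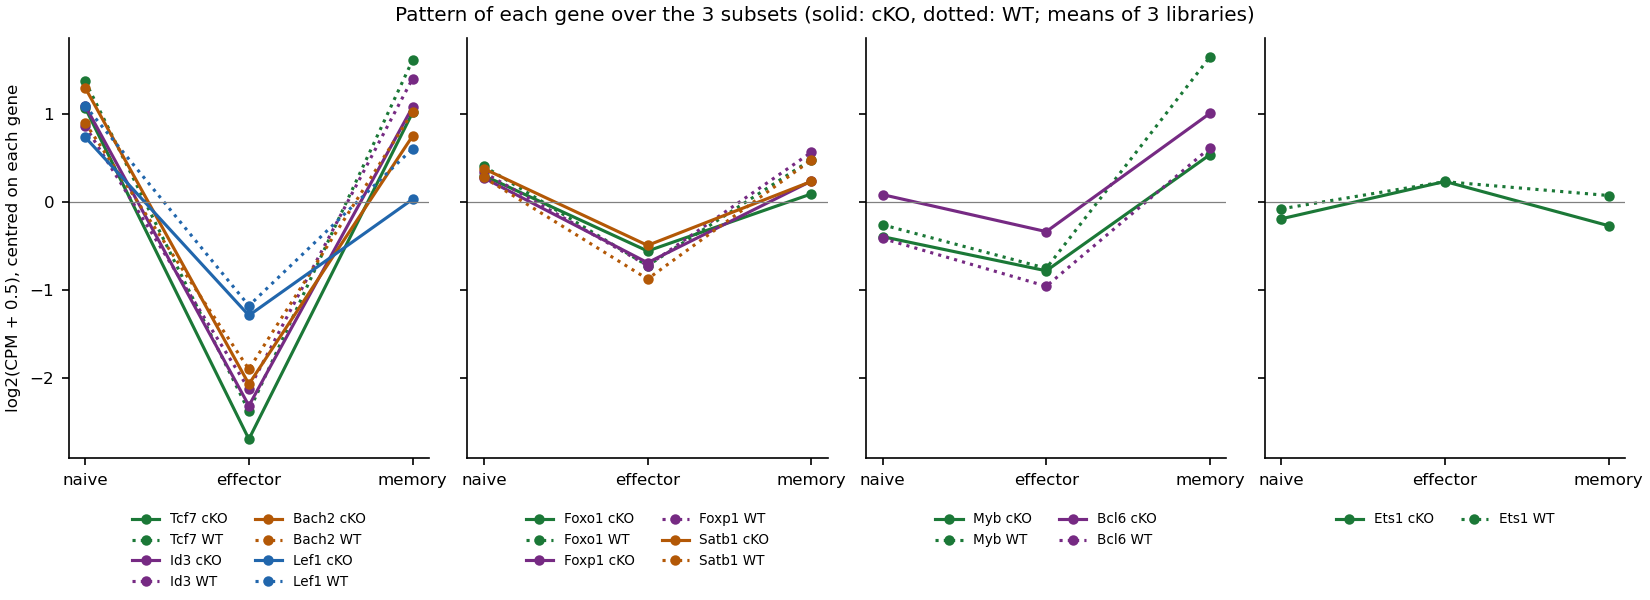
Mean log2(CPM + 0.5) of each gene over the 3 subsets, centred on the gene's own mean of 6 groups; solid lines are cKO and dotted lines WT, each point the mean of 3 libraries. Tcf7, Id3, Bach2 and Lef1 dip deepest in effector cells, Foxo1, Foxp1 and Satb1 share a shallower dip, Myb and Bcl6 peak in memory cells, and Ets1 spans only 0.50 log2 units.

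The likeness of the members' patterns was measured as the root mean square difference of these 6 centred group means. Foxo1 and Foxp1 were the nearest pair of members at 0.09 log2 units, followed by Foxo1 and Satb1 at 0.11, Foxp1 and Satb1 at 0.12, Bach2 and Id3 at 0.26, and Tcf7 and Id3 at 0.29. Tcf7 and Lef1, which share a DNA motif, were 0.97 apart, and Tcf7 and Ets1 were farthest from each other at 1.96. Among 7224 genes with a mean of at least 4 on that log2 scale, the nearest to Tcf7 were Rapgef4 at 0.21, Nsg2 at 0.26, Aff3 at 0.29, Pacsin1 at 0.31 and Insr at 0.32. The nearest to Lef1 were Slc12a7 at 0.06 and Scml4 at 0.11. Bach2 was nearest to Plekha1 at 0.12, Il6st at 0.21 and Mtss1 at 0.21. Myb had no gene closer than Dusp10 at 0.23, and Bcl6 was nearest to Itm2a at 0.12 and Zfp36l1 at 0.18. These distances describe 6 group means from the same 18 libraries. The means were centred but not scaled, so a distance also grows with the depth of a change. Tcf7 spanned 4.31 log2 units over the groups and Lef1 2.38, and both were lowest in effector cKO cells.

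The genotypes were compared first in memory cells, where most members differed. Myb, which is known to keep memory CD8+ T cells stem-like, was lower by more than any other member. The 3 memory cKO libraries held 978, 1198 and 1309.7 normalised reads of Myb, against 2639, 2397 and 2613 in the memory WT libraries. Each cKO library lay far below each WT library, and the first cKO library was lowest. The mean of 1162 ± 169 in cKO was 0.456 times the 2549.8 ± 133 in WT (SD, n = 3 each), a log2 difference of -1.14 (SE 0.10, limma adjusted p = 8.5e-06). In all, 9 of the 10 members were called in memory cells, 8 lower (of which Satb1 turned to 0.01 when scaled to CD8 T cell markers) and 1 higher, where 19.1% of all 14622 genes tested were called, 7.00% lower and 12.1% higher. The members' median log2 fold change was -0.36, against -0.02 over all genes tested. All 10 members had groups that did not overlap, as did 36.2% of all genes tested.

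Tcf7 held 19723, 18724 and 19128 normalised reads in memory cKO cells and 29339, 30559 and 28672 in memory WT cells. The lowest WT library was well above the highest cKO library, with a log2 difference of -0.62 (SE 0.08, limma adjusted p = 2.0e-04). Its partner Lef1 held 4197, 4613 and 4847 reads in memory cKO cells and 6861, 7134 and 6696 in memory WT cells. The log2 difference was -0.60 (SE 0.08, adjusted p = 1.5e-04), close in size to that of Tcf7. Id3, the inhibitor of E proteins, held 394, 371 and 406 reads in cKO and 471, 541 and 487 in WT, a log2 difference of -0.35 (SE 0.09, adjusted p = 0.020). The Id3 call was lost under library totals (0.051) and in the joint fit of all 18 libraries (0.182).

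The forkhead factors were lower as well. Foxo1 held 3764, 4131 and 4076 normalised reads in memory cKO cells, against 5392, 5362 and 5215 in memory WT cells, with a log2 difference of -0.42 (SE 0.07, limma adjusted p = 0.0012). Foxp1 held 3752, 4612 and 4359 reads in cKO and 5489, 5149 and 5559 in WT, with a log2 difference of -0.35 (SE 0.09, adjusted p = 0.013). The 2 genes moved by similar amounts, and the first cKO library was the lowest for both.

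Ets1 held 18342, 21529 and 21110.4 normalised reads in memory cKO cells and 26531, 26017 and 26049 in memory WT cells, a log2 difference of -0.37 (SE 0.09, limma adjusted p = 0.013), a call lost without WT replicate 1 or 3 (0.069 each). Satb1 held 9769, 10959.7 and 11734 reads in cKO and 12834, 13155 and 13039 in WT, a log2 difference of -0.27 (SE 0.08, adjusted p = 0.043), the smallest of the called falls and the one whose sign turned, to 0.01, when libraries were scaled to their CD8 T cell markers. The Satb1 call was also lost under library totals (0.128) and with no filter on low values (0.055). Bach2, the repressor of AP-1 driven genes, held 1297, 1795 and 1877 reads in cKO and 2108, 1882 and 2049 in WT. Its log2 fold change of -0.30 (95% interval -0.56 to -0.03) missed the threshold (adjusted p = 0.115), and was -0.13 without the first cKO library. The joint fit of all 18 libraries called it lower (adjusted p = 0.029).

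Bcl6, a repressor needed for follicular helper and memory programmes, was the only member called higher. It held 692, 652 and 725 normalised reads in memory cKO cells, against 530.2, 532 and 537 in memory WT cells. Each cKO library exceeded each WT library, and the log2 fold change was 0.37 (SE 0.08, limma adjusted p = 0.0073).

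The count of called members depended on single libraries and on the scaling. Without WT replicate 3, 5 members were called (Foxp1, Id3, Satb1 and Ets1 were not), and 1839 genes in all against 2793. Without WT replicate 1, 6 were called (Foxp1, Satb1 and Ets1 were not), and 7 without WT replicate 2 or without cKO replicate 2 (Id3 and Satb1 were not). Summed markers of most other cells were higher in memory cKO than in memory WT cells: myeloid markers lay at 493 to 568 CPM against 81.6 to 89.9 (11 of 11 called higher), neutrophil markers at 219 to 296 against 18.6 to 22.3 (8 of 8), B cell markers at 1689.9 to 2001 against 841 to 925 (9 of 13), NK cell markers at 180.2 to 215 against 42.1 to 49.2 (7 of 8) and γδ T cell markers at 118 to 153 against 16.0 to 17.5 (4 of 5 tested), none of them at 0 in either genotype. Effector T cell markers, given above, were higher too (7 of 8), and cycling markers lay at 475 to 529 CPM in cKO and 373 to 383 in WT (4 of 8 higher). CD4 T cell markers went the other way, at 242 to 272 CPM in cKO and 405 to 424 in WT (3 of 8 lower, 2 higher). CD8 T cell markers summed to 5263 to 6012 CPM in cKO and 6224 to 6720 in WT, with 3 of 10 called lower and 0 higher. Of these, Cd8b1 lay at 543 ± 50.2 CPM in cKO and 918 ± 46.4 in WT, while Trac lay at 549 ± 46.0 in cKO and 548 ± 42.4 in WT, and Cd2 at 286 ± 25.1 in cKO and 287 ± 23.9 in WT. When each library was scaled to its summed CD8 T cell markers, a setting chosen after the data were seen, 4 members were called. Tcf7 at -0.34, Lef1 at -0.32 and Myb at -0.86 were then lower and Bcl6 at 0.65 higher, while the median over all genes shifted by 0.28. Many more genes were called under that scaling than under the authors' size factors, most of them higher, as given in the closing sections. A count of 4 members is therefore no result about the group. Fewer CD8 T cells in a library and less RNA of these genes per cell cannot be told apart in bulk RNA.

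**Figure D3:**
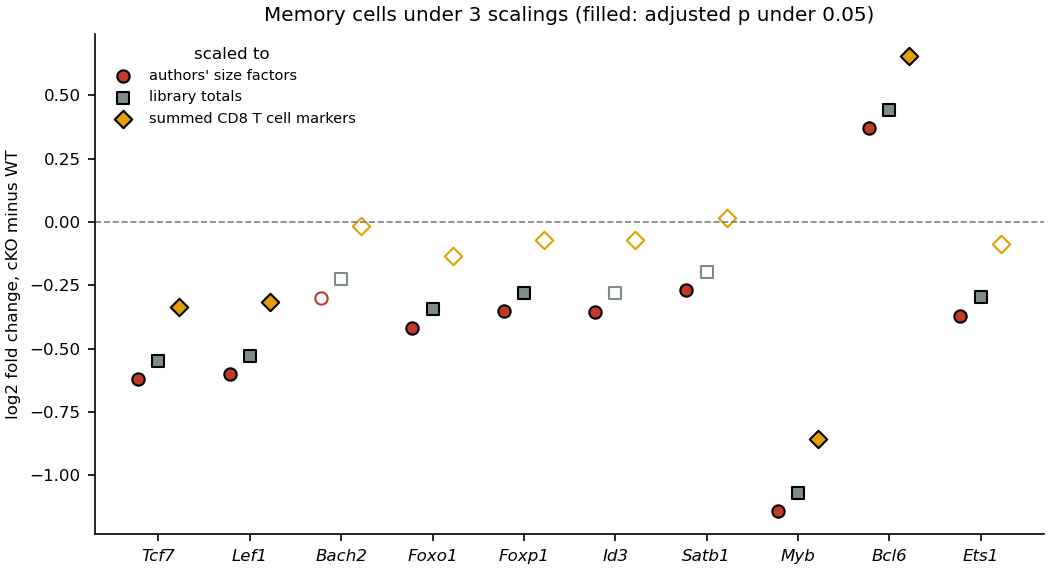
log2 fold change (cKO minus WT) of each gene in memory cells under 3 scalings, from left to right the authors' size factors, library totals and the summed CD8 T cell markers; filled symbols passed an adjusted p of 0.05. Myb, Tcf7, Lef1 and Bcl6 were called under all 3, Satb1 changed sign to 0.01 under the marker scaling, and the other members moved towards 0.

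In naive cells the comparison asks how the genotypes differ before culture, with the sex of the mice confounded as given above. Tcf7 held 20352, 19801 and 22053 normalised reads in naive cKO cells, against 25481, 27205 and 24999 in naive WT cells. The log2 difference was -0.32 (SE 0.07, limma adjusted p = 0.0050), with no overlap between the groups. Lef1 held 7347, 7429.6 and 8421 reads in cKO and 9946, 10499.7 and 9609 in WT, a log2 difference of -0.38 (SE 0.07, adjusted p = 0.0023). Bach2 and Bcl6 went the other way. Bach2 held 2516, 2524 and 2433 reads in naive cKO cells and 1859.8, 1917 and 1958 in naive WT cells, a log2 difference of 0.38 (SE 0.06, adjusted p = 7.6e-04). Bcl6 held 338, 374 and 414 reads in cKO and 266, 260.4 and 271 in WT, a log2 difference of 0.49 (SE 0.10, adjusted p = 0.0055).

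These 4 were the members called in naive cells, 2 higher and 2 lower, where 24.9% of all 13885 genes tested were called, 12.9% higher and 11.9% lower. With 10 members, a count of 4 against that background is no result about the group. The background itself was 2266 genes without cKO replicate 1 and 2261 without cKO replicate 2, against 3454, and the same number of members was called. The other 6 gave -0.13 for Foxo1, -0.08 for Foxp1, 0.22 for Id3, 0.08 for Satb1, -0.15 for Myb and -0.13 for Ets1, with adjusted p-values between 0.113 and 0.364, and Foxo1, Foxp1, Myb and Ets1 lay above 0 when scaled to CD8 T cell markers. Their 95% intervals reached no further than -0.32 for Myb and 0.42 for Id3. Groups did not overlap for 9 of the 10 members, all but Satb1, and for 39.8% of all genes tested.

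In naive cells as well, marker levels moved with the genotype: CD8 T cell markers summed to 6114 to 6389 CPM in cKO and 6915 to 7130 in WT (7 of 10 called lower), cycling markers to 344 to 376 in cKO and 115 to 123 in WT (7 of 8 higher), and γδ T cell markers to 50.7 to 59.3 in cKO and 9.61 to 11.1 in WT. Scaled to library totals, which shifted the median of all genes by 0.12, Id3 at 0.33 and Satb1 at 0.20 were also called higher, and Foxp1 turned to 0.04. Scaled to the CD8 T cell markers, 7 members were called, all higher, Tcf7 at -0.02 and Lef1 at -0.08 were no longer called, and the median of all genes shifted by 0.29. Most of all genes called under that scaling were higher too, as given in the closing sections, so this count is no result about the group.

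**Figure D4:**
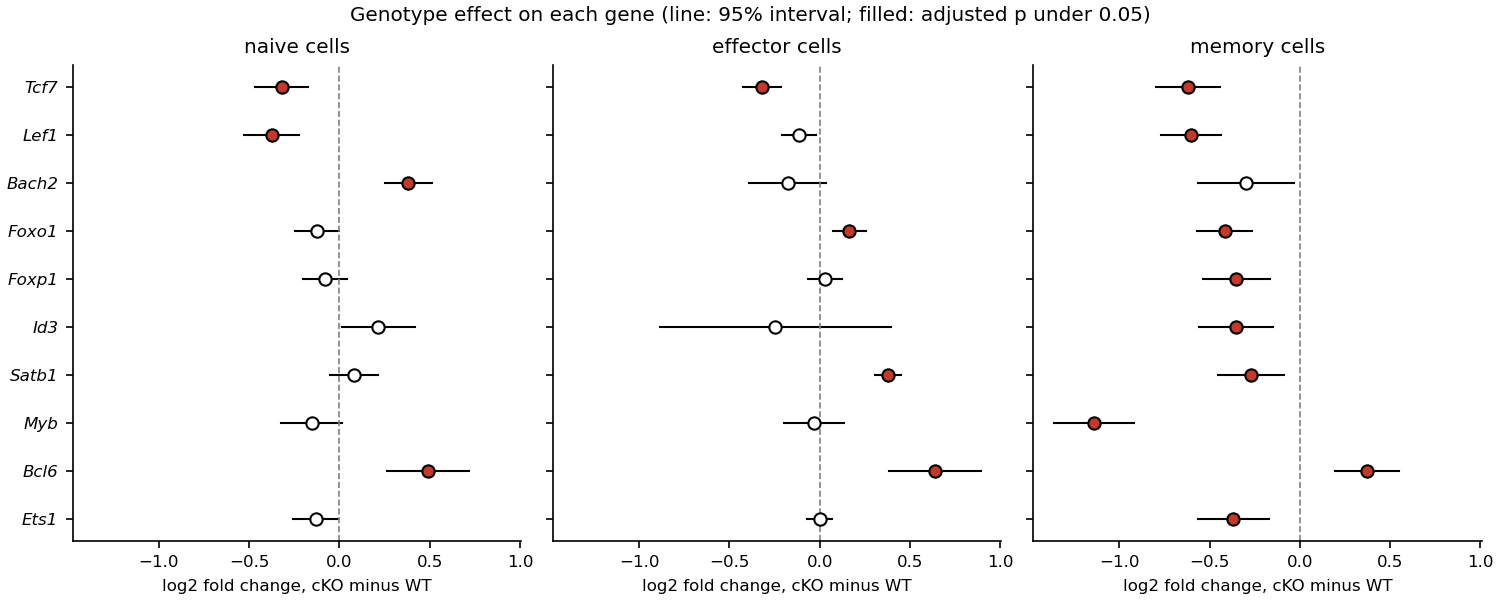
log2 fold change (cKO minus WT) of each gene in naive, effector and memory cells under the authors' size factors; lines are 95% intervals from limma and filled points passed an adjusted p of 0.05. Bcl6 lies above 0 and Tcf7 below 0 in all 3 subsets, and in memory cells all members but Bcl6 lie below 0, of which Satb1 turns to 0.01 when scaled to CD8 T cell markers.

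In effector cells Tcf7 held 1293, 1444 and 1391 normalised reads in cKO, against 1707, 1709.6 and 1733 in WT. Although these levels were far under those of naive cells, the log2 difference was again -0.32 (SE 0.05, limma adjusted p = 1.5e-04). Satb1 held 6172, 6179 and 6096 reads in effector cKO cells and 4713, 4780.1 and 4688 in effector WT cells. The libraries of a group lay close together, and the log2 fold change was 0.38 (SE 0.03, adjusted p = 2.2e-07). Bcl6 held 248, 282 and 228 reads in cKO and 183, 144 and 159 in WT, a log2 difference of 0.64 (SE 0.12, adjusted p = 8.2e-04). Foxo1 held 2433, 2447 and 2311 reads in cKO and 2152, 2095 and 2172 in WT, a log2 difference of 0.16 (SE 0.04, adjusted p = 0.012), and this call was lost without cKO replicate 2 (0.061).

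Of the 10 members, 4 were called in effector cells, 3 higher and 1 lower, where 20.1% of all 13815 genes tested were called, 10.7% higher and 9.37% lower. Lef1 at -0.11 (95% interval -0.21 to -0.02) missed the threshold at an adjusted p of 0.088. Ets1 lay at 27120.4 ± 929 reads in cKO and 27128 ± 439 in WT, with an interval of -0.07 to 0.07, and Foxp1 had an interval of -0.06 to 0.12. Myb had one of -0.20 to 0.13 and Bach2 one of -0.39 to 0.04. Id3 rested on 18 to 47 reads a library, and its interval of -0.88 to 0.39 sets no close limit. Groups did not overlap for Tcf7, Lef1, Bach2, Foxo1, Satb1 and Bcl6, and for 35.4% of all genes tested. CD8 T cell markers summed to 7112 to 7386 CPM in effector cKO and 7783 to 7895 in effector WT cells. Of these markers, 2 of 10 were called higher and 2 lower (median log2 fold change 0.03). Erythroid markers summed to 101 to 105 CPM in cKO and 15.2 to 17.0 in WT (8 of 8 tested higher). Cycling markers lay at 2184 to 2272 CPM in cKO and 3019 to 3157 in WT. Neutrophil markers (7 of 7 tested), γδ T cell markers (5 of 6), B cell markers (4 of 12), NK cell markers (7 of 8) and myeloid markers (7 of 11) were called higher in effector cKO cells as well. The γδ T cell markers summed to 68.0 to 71.2 CPM in cKO and 11.2 to 13.2 in WT. The part of such markers in the members' values was not tested in any subset.

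Whether the genotype effect itself differed between subsets was tested as an interaction in limma over all 18 libraries. The effect in memory cells was lower than that in effector cells for 7 members and higher for none, where 8.71% of all 15694 genes tested were called, 3.96% lower and 4.75% higher. The differences were -1.11 for Myb (SE 0.12, adjusted p = 2.6e-06), -0.65 for Satb1, -0.58 for Foxo1, -0.49 for Lef1, -0.38 for Foxp1, -0.37 for Ets1 and -0.30 for Tcf7. The Tcf7 call was lost, among other settings, when scaled to library totals (adjusted p = 0.097). Scaled to the CD8 T cell markers, only Myb, Satb1 and Foxo1 were called, while Tcf7 (0.426), Lef1 (0.085), Foxp1 (0.371) and Ets1 (0.373) were not. Against naive cells, the effect in memory cells was lower for 6 members and higher for none (16.9% of all genes called, 9.00% lower and 7.89% higher). Myb differed by -0.99, Bach2 by -0.68 (SE 0.13, adjusted p = 0.0012), Satb1 by -0.35, Tcf7 by -0.30, Foxo1 by -0.29 and Foxp1 by -0.27, the last lost, among other settings, without memory cKO replicate 1 (-0.19, adjusted p = 0.095). Id3 at -0.57 missed the threshold (adjusted p = 0.136) and was called in edgeR (0.013), and Ets1 at -0.24 (0.066) likewise (0.031). The Foxo1 call was lost under the CD8 T cell marker scaling (0.064).

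The effector effect differed from the naive effect for 4 members (18.5% of all genes called, 8.81% higher and 9.69% lower). It was higher for Satb1 by 0.30, for Foxo1 by 0.29 and for Lef1 by 0.26, and lower for Bach2 by -0.56 (SE 0.13, adjusted p = 0.0050). Only the Bach2 difference was still called under library totals or under the CD8 T cell markers, and the Lef1 call was lost in edgeR (0.079) and DESeq2 (0.051) too. Without effector cKO replicate 2, Id3 differed by -0.76 (adjusted p = 0.0089), against -0.46 (0.233). For Tcf7 the effector and naive effects differed by 0.00 (95% interval -0.17 to 0.17). Bcl6, called higher in each subset, had differences of 0.15 (-0.15 to 0.45) for effector against naive, -0.12 (-0.42 to 0.18) for memory against naive and -0.27 (-0.57 to 0.03) for memory against effector cells. The 3 tests share libraries in pairs.

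The authors' deposited table, which gives WT over cKO, called 4 members in naive cells, 4 in effector cells and 9 in memory cells at an adjusted p under 0.05. The authors' calls rest on the same 18 libraries, and the share of all genes they called was not counted here. These counts are therefore no result about the group.

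The genes that FOXO1 is known to drive or hold were read from a list of 18, all of them tested. In memory cells 10 were called lower and 2 higher, against 7.00% and 12.1% of all genes, with a median log2 fold change of -0.33, against -0.02 over all genes. S1pr1, the receptor for exit from lymphoid tissue, lay at 5345 ± 213 normalised reads in cKO and 8998 ± 345 in WT (-0.75, SE 0.07), and the homing receptor Ccr7 at 14601 ± 1127 in cKO and 23352 ± 1334 in WT (-0.68, SE 0.09). The death factor Bcl2l11 was higher, at 3194 ± 181 reads in cKO and 1695 ± 147 in WT (0.92, SE 0.08), as was the pseudokinase gene Trib1. Scaled to the CD8 T cell markers, 2 were called lower and 3 higher, where most of all genes called were higher, as given in the closing sections. Without WT replicate 3, 7 were called lower and 2 higher. The split of all genes without that library is not given here, so this count has no share beside it. In effector cells 8 were higher and 4 lower, against 10.7% and 9.37% of all genes, and Il7r, the receptor for the survival cytokine IL-7, lay at 1672 ± 5.54 reads in cKO and 1132 ± 40.4 in WT (0.56, SE 0.05, limma adjusted p = 1.3e-07). In naive cells 6 were higher and 6 lower, against 12.9% and 11.9% of all genes, with Txnip lower by -0.92 and Il7r by -0.48, and with Bcl2l11 higher by 0.98. The effect on Il7r differed by -1.05 between memory and effector cells (SE 0.07, limma adjusted p = 2.0e-09), and 13 of the 18 genes were called lower in that difference and 2 higher, against 3.96% and 4.75% of all genes.

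Factors linked to effector or exhausted T cells formed a list of 27, not all of which oppose the naive and stem-like state. In memory cells 12 of 26 tested were called higher and 1 lower (median 0.17), where 12.1% of all genes were higher and 7.00% lower, led by Irf8 at 2526 ± 45.8 normalised reads in cKO and 563 ± 10.5 in WT (2.16, SE 0.07) and by Bhlhe40 at 5801 ± 88.7 in cKO and 1600.2 ± 104 in WT (1.86, SE 0.07). Tbx21, which encodes the effector regulator T-bet, was higher by 0.93. In naive cells 13 of 24 were higher and 3 lower (median 0.31), against 12.9% and 11.9% of all genes. There Nr4a1, an early target of T cell receptor signals, lay at 4674 ± 197 reads in cKO and 1184 ± 101 in WT (1.98, SE 0.07), and Irf4 was higher by 2.08. In effector cells 8 of 27 were higher and 7 lower, against 10.7% and 9.37% of all genes, with Ikzf2 higher by 2.22. Irf8 is also made by B and myeloid cells, whose markers were higher in memory cKO cells as given above.

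Naive and stem-like surface and signalling genes, a list of 20, were split. In memory cells 9 were called lower and 3 higher, against 7.00% and 12.1% of all genes, among them Dapl1, a marker of naive T cells, at 304 ± 59.3 normalised reads in cKO and 1599 ± 101 in WT (-2.41, SE 0.13), against Il2rb, a chain of the IL-2 and IL-15 receptors, at 17851 ± 335 in cKO and 7778 ± 69.4 in WT (1.20, SE 0.07). Bcl2, an antagonist of cell death, was higher in naive, effector and memory cKO cells, by 0.98, 1.66 and 0.94. Scaled to the CD8 T cell markers, 6 of the 20 were lower in memory cells and 8 higher. Under the authors' size factors the list gave 8 higher and 9 lower in naive cells, against 12.9% and 11.9% of all genes. It gave 8 higher and 7 lower in effector cells, against 10.7% and 9.37%. Of 26 other regulators of quiescence, 9 were higher and 3 lower in naive cells, 9 and 1 in effector cells, and 4 and 8 in memory cells. Over all genes 12.9% were higher and 11.9% lower in naive cells, 10.7% and 9.37% in effector cells, and 12.1% and 7.00% in memory cells. The 3 lower in naive cells and the 4 higher in memory cells lay near those shares. Klf3 was lower in memory cells by -0.65 and Zfp36l2 higher by 0.71. Scaled to the CD8 T cell markers, none of the 26 was called lower in memory cells and 11 were called higher. Most of all genes called under that scaling were higher as well, as given in the closing sections.

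Relatives of the members were counted in the same way. The shares over all genes given above hold only for the counts of these lists under the authors' size factors and all libraries. Counts under another scaling or with a library left out have other shares. The numbers of genes called under those scalings are given in the closing sections. In naive cells 6 of 20 tested were higher and 2 lower, and in effector cells 5 of 19 and 2 of 19. Over all genes 12.9% were higher and 11.9% lower in naive cells, 10.7% and 9.37% in effector cells, and 12.1% and 7.00% in memory cells. These shares also belong to the counts of relatives in memory cells and of cofactors below. In memory cells 4 of 20 tested were higher and 1 lower (median 0.17), with the E protein gene Tcf4 at 492 ± 116 normalised reads in cKO and 82.6 ± 3.35 in WT (2.53, SE 0.17), and Id2, the effector counterpart of Id3, higher by 0.29. Tcf4 is also expressed by B cells and plasmacytoid dendritic cells. The E protein gene Tcf12 was higher in naive cells by 0.32 and in effector cells by 0.28. Mybl2, a cell cycle relative of Myb, was higher in naive cells by 0.90 and lower in effector cells by -0.46, as were the cycling markers. Among cofactors of TCF1 and LEF1 and the Wnt pathway, 5 of 19 were called lower and 1 higher in naive cells, with the corepressor gene Tle5 at 5312 ± 179 reads in cKO and 6877 ± 424 in WT (-0.37, SE 0.06), and 2 lower and 2 higher of 19 in effector cells. Under library totals 2 of these 19 were lower in naive cells and 5 higher. In memory cells 3 of 20 were lower and 2 higher, with Axin2, a known target of TCF and LEF factors, at 503 ± 52.5 reads in cKO and 636 ± 32.8 in WT (-0.34, SE 0.10, limma adjusted p = 0.028). Under library totals none of these 20 was called lower in memory cells and 2 were called higher, and without WT replicate 3 none was lower and 1 higher.

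The deposited tables place the genes on GRCm39, Tcf7 on chromosome 11 (52143198 to 52174158, minus strand), Lef1 on chromosome 3 (130904120 to 131018005, plus strand), Bach2 on chromosome 4 (32238804 to 32586108, plus strand), Foxo1 on chromosome 3 (52175757 to 52260642, plus strand). They place Foxp1 on chromosome 6 (98902299 to 99499682, minus strand), Id3 on chromosome 4 (135870808 to 135873066, plus strand), Satb1 on chromosome 17 (52043215 to 52140318, minus strand), and Myb on chromosome 10 (21000834 to 21036883, minus strand), Bcl6 on chromosome 16 (23783802 to 23807602, minus strand), Ets1 on chromosome 9 (32547517 to 32669116, plus strand). Several overlap other annotated genes. The overlapping Bach2it1, a noncoding RNA on the same strand as Bach2, held up to 15.7% as many reads as Bach2 in a library, and E430014B02Rik up to 5.55% as many as Satb1. For Tcf7, Lef1, Foxo1, Foxp1 and Ets1 no overlapping gene exceeded 1.74%. The strand setting of the counting is not given in the sources used here, so reads of these pairs may have been assigned to either gene.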

How the data were processed

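Poly-A RNA of 18 libraries was aligned and counted by the authors on GRCm39, per the submitters' processing notes, which name DESeq2 1.42.0, featureCounts 2.0.6, HISAT2 2.2.1 and fastp. The annotation and strand setting are not given in the sources used here. The deposited values are a normalised signal, reads divided by one size factor per library and table. All values (100%) came back as whole reads within 1e-05, so the counts behind the deposited tables were recovered, and their totals of 14771251 to 18049774 limit the precision. The deposited log2 fold changes and adjusted p-values run WT over cKO and were used only where named. Genotype effects were tested within each table on the log2 of the normalised reads plus 1 in limma 3.58.1, run under R 4.3.3, a scale that understates changes of low genes, for genes with at least 10 in 3 libraries. Interactions used the same values of all 18 libraries, and the tables had been normalised separately. Subsets were compared in limma on log2(CPM + 0.5) of the recovered reads with TMM scaling. Adjusted p-values are Benjamini-Hochberg over all genes tested, called under 0.05. Alternatives used edgeR 4.0.16 and DESeq2 1.42.0 on the recovered reads, other pseudocounts, filters and scalings, a replicate block and each library left out. The scaling to CD8 T cell markers was chosen after seeing the data. All 10 members were named, and up to 4 called genes of each list with the smallest adjusted p. One list gene is not reported here. The members and the 6 lists (138 entries, 136 matched) were chosen with earlier results of these data known.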

Additional observations from a re-analysis of the deposited data

Results flagged for a closer look

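The genotype effect (cKO minus WT) differed between subsets by an interaction test in limma for 17 pairs of member and subset contrast, all on the log2 scale. Between effector and naive cells the effect was higher in effector cells by 0.30 for Satb1, 0.29 for Foxo1 and 0.26 for Lef1, and lower by -0.56 for Bach2. Between memory and naive cells the difference was -0.99 for Myb, -0.68 for Bach2, -0.35 for Satb1, -0.30 for Tcf7, -0.29 for Foxo1 and -0.27 for Foxp1. Between memory and effector cells the difference was -1.11 for Myb, -0.65 for Satb1, -0.58 for Foxo1, -0.49 for Lef1, -0.38 for Foxp1, -0.37 for Ets1 and -0.30 for Tcf7. The naive effects also carry the difference in sex of the libraries, which cannot be told apart from genotype.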

How the results depend on the processing

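Of 2670 member values under alternatives, 2510 kept their direction and their side of the threshold, 99 lost a call, 22 gained one and 39 changed sign. Scaled to CD8 T cell markers, 7 members were called in naive cells (4 as reported), 4 in memory cells (9), 1 in effector against naive effects (4) and 3 in memory against effector effects (7), and 6429 genes in naive cells (6067 higher, 362 lower, against 1796 and 1658) and 4958 in memory cells (4714 higher, 244 lower, against 1769 and 1024). It gave 3050 higher and 637 lower in effector cells (1485 and 1294), 503 and 2411 for effector against naive effects (1382 and 1520), and 1596 and 196 for memory against effector effects (745 and 622). Library totals left 1 member called for effector against naive effects and gave splits of 2883 and 818 in naive cells, 2259 and 639 in memory cells, 768 and 2324 for effector against naive effects and 1078 and 398 for memory against effector effects. The joint fit of all 18 libraries called 1519 genes in effector cells, against 2779. The cause was not tested.

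With the CD8 marker scaling the sign turned in naive cells for Foxo1 (0.17), Foxp1 (0.22), Myb (0.14) and Ets1 (0.17), in effector cells for Myb (0.069) and Ets1 (0.10), and in memory cells for Satb1 (0.014). The effector minus naive difference turned for Tcf7 (-0.20), Foxp1 (-0.086), Myb (-0.074), Bcl6 (-0.050) and Ets1 (-0.065), and the memory minus effector difference for Bach2 (0.062) and Id3 (0.075). Under library totals it turned for Foxp1 in naive cells (0.038) and, effector minus naive, for Tcf7 (-0.12), Foxp1 (-0.014) and Myb (-0.0015). Tcf7 in that difference was -0.026 in edgeR and -0.015 in DESeq2, and Id3 in memory minus naive cKO cells was 0.0097 in DESeq2.

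With each library left out in turn, members called ranged from 4 to 4 in naive, 3 to 4 in effector and 5 to 9 in memory cells, and from 3 to 4, 5 to 7 and 6 to 7 in the interactions of effector with naive, memory with naive and memory with effector. Genes called ranged from 2261 to 3301, 2095 to 2585 and 1839 to 3310 in naive, effector and memory cells. Values that changed sign spanned -0.55 to 0.045 for Id3, -0.074 to 0.023 for Myb and -0.023 to 0.026 for Ets1 in effector cells, -0.035 to 0.046 for Tcf7 effector minus naive, -0.22 to 0.046 for Bach2 and -0.40 to 0.19 for Id3 memory minus effector, and -0.088 to 0.030 for Foxp1 and -0.072 to 0.031 for Id3 in memory minus naive cKO cells.

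The labels give groups the same replicate numbers, but deviations of same-numbered libraries correlated only between -0.10 and 0.07, below the limit of 0.1, so the main fits used no pairing. With 3 libraries a group, these correlations cannot show whether same-numbered libraries came from the same mice. A fit with the replicate block called 4, 4 and 6 members in naive, effector and memory cells (2469, 2687 and 2226 genes), and 3, 5 and 7 in the interactions. In memory cells Id3 (adjusted p = 0.058), Satb1 (0.113) and Ets1 (0.057) were then not called. In 1 of 15 pairs of groups, effector WT with memory WT, each library correlated best with its own number (0.017 to 0.046). Depth limits Id3 in effector cells, read from 18 reads upwards.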
